A study of Mus musculus with 9 samples.

Results

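Leiomodins, tropomodulins and tropomyosins set the length and stability of the thin filaments of heart muscle. The 10 genes *Lmod1*, *Lmod2*, *Lmod3*, *Tmod1*, *Tmod3*, *Tmod4*, *Tpm1*, *Tpm2*, *Tpm3* and *Tpm4* were taken by symbol from a table of 24571 usable gene symbols, and all 10 were found. All 10 also passed the filter of a mean of at least 1 TPM (a transcript level corrected for length, with the same total in all libraries), as did 13682 genes in total. Whole hearts of C57BL/6N mouse embryos at E18.5, shortly before birth, had been profiled by RNA sequencing in 3 groups. Wild-type hearts carried no edited allele, heterozygous hearts carried 1 *Ctcf* allele with the R567W substitution and homozygous hearts carried it on both alleles, with 3 libraries in each group and no further treatment. The substitution was introduced by CRISPR/Cas9 and is present in every cell of the embryo, so changes within cardiomyocytes and changes in other cells of the heart enter the same value.

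CTCF is a DNA-binding protein with zinc fingers that anchors chromatin loops and domain borders. In the sarcomere, tropomyosin is a coiled coil that lies along the actin filament and, with troponin, controls access of myosin to actin. Tropomodulins bind actin and tropomyosin at the slow-growing pointed end of the filament and cap it, while leiomodins are related proteins that nucleate actin and act at the same end, where Lmod2 promotes elongation of cardiac thin filaments. Loss of *Lmod2* in mice causes short thin filaments and dilated cardiomyopathy, and loss of LMOD3 in people causes nemaline myopathy of skeletal muscle.

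Some properties of the libraries bear on all values below. TPM keeps no read depth, so counting errors are unknown, and precision can only be judged from how far the 3 libraries of each genotype lie apart. The labels do not say whether the libraries came from separate embryos, and p-values measure the spread between these libraries. The median log2 change over all tested genes was 0.23 for homozygous against wild type, 0.08 for homozygous against heterozygous and 0.15 for heterozygous against wild type, so changes are also given relative to it. The 10 cardiomyocyte markers summed to between 34429 and 46766 TPM in each library. Markers of airway and lung, called lung markers below, were high in wild-type replicate 1 (2616 TPM) and heterozygous replicate 1 (1106 TPM). Most of these sums came from *Scgb3a2*, at 2355 and 1053 TPM. Liver markers were high in heterozygous replicate 1 (2558 TPM) and thymocyte markers in homozygous replicate 3 (563 TPM). Lung markers were also present at 50.6 TPM in homozygous replicate 1 and 36.3 TPM in wild-type replicate 2, and at no more than 3.37 TPM in the other 5. *Xist* was at 87.8 TPM or more in all 3 heterozygous libraries, 1 of 3 wild-type and 1 of 3 homozygous libraries and at most 0.05 TPM in the other 4, so sex was not balanced in comparisons with the heterozygous group. Less RNA per cell and fewer cells of a type cannot be told apart in whole hearts.

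The study used the *Lmod2* promoter as the bait of its chromosome conformation capture, and it measured *Lmod3* by RT-qPCR, so the sequences that fix these places are shown. *Lmod2* (ENSMUSG00000029683.7) lies on the plus strand of chromosome 6 at 24597762 to 24605414 (mm10) and has 1 annotated transcript. The RefSeq sequence just upstream of that start, chr6:24597521-24597761 on the plus strand of GRCm38.p6, is given first, and its capitals mark the footprint of the biotinylated bait primer, which reads on the minus strand. The footprint ends 142 bases before the annotated start. The RT-qPCR primers of *Lmod3* enclose 214 bases of coding sequence in exon 1 of 3, at chr6:97252293-97252506 on the minus strand.
Lmod2 promoter: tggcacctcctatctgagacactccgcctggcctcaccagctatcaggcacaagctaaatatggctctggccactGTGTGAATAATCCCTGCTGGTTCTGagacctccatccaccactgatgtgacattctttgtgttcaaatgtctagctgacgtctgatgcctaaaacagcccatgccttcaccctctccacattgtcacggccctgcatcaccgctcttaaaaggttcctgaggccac
Lmod2 bait primer: cagaaccagcagggattattcacac
Lmod3 forward primer: actcctagccaacttatcccc
Lmod3 reverse primer: actgacaggaactcgttcatct

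The genes spanned more than 3 orders of magnitude in level. *Tpm1*, the main tropomyosin of the heart, averaged 4278 ± 429 TPM (SD, n = 9) and stood above all others in each library, at the 99.8th percentile of tested genes. *Tmod1*, the tropomodulin of striated muscle, followed with 169 ± 22.3 TPM, and *Tpm4*, which encodes a mainly cytoskeletal tropomyosin, with 168 ± 16.1 TPM. These neighbours could not be ordered, since *Tmod1* was above *Tpm4* in 3 of 9 libraries. Next came *Tpm3* at 128 ± 16.7 TPM, *Tpm2*, the tropomyosin prominent in smooth and slow skeletal muscle, at 102 ± 12.96 TPM and *Lmod2* at 82.4 ± 28.6 TPM. Their ranges overlapped from one to the next, although *Tpm3* exceeded *Tpm2* in 8 of 9 libraries and *Tpm2* exceeded *Lmod2* in 7 of 9. The exceptions for *Lmod2* were wild-type replicates 1 and 2, and its wild-type mean of 113 TPM was above the 106 TPM of *Tpm2*. The broadly expressed *Tmod3* and the striated-muscle leiomodin *Lmod3* had similar means over all libraries, at 34.2 ± 4.53 and 32.9 ± 8.998 TPM. *Tmod3* was the higher in 4 of 9 libraries, namely wild-type replicate 1 and all homozygous libraries. The smooth-muscle leiomodin *Lmod1*, at 1.50 ± 0.704 TPM, and the skeletal-muscle tropomodulin *Tmod4*, at 1.13 ± 0.716 TPM, were close to the limit of 1 TPM and only at the 6.31 and 1.92 percentiles. The coefficient of variation over the 9 libraries was 63.4% for *Tmod4*, 46.8% for *Lmod1*, 34.7% for *Lmod2* and 27.4% for *Lmod3*, so the leiomodins varied more than the tropomyosins and the other tropomodulins, at 9.61% to 13.3%.

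**Figure D1:**
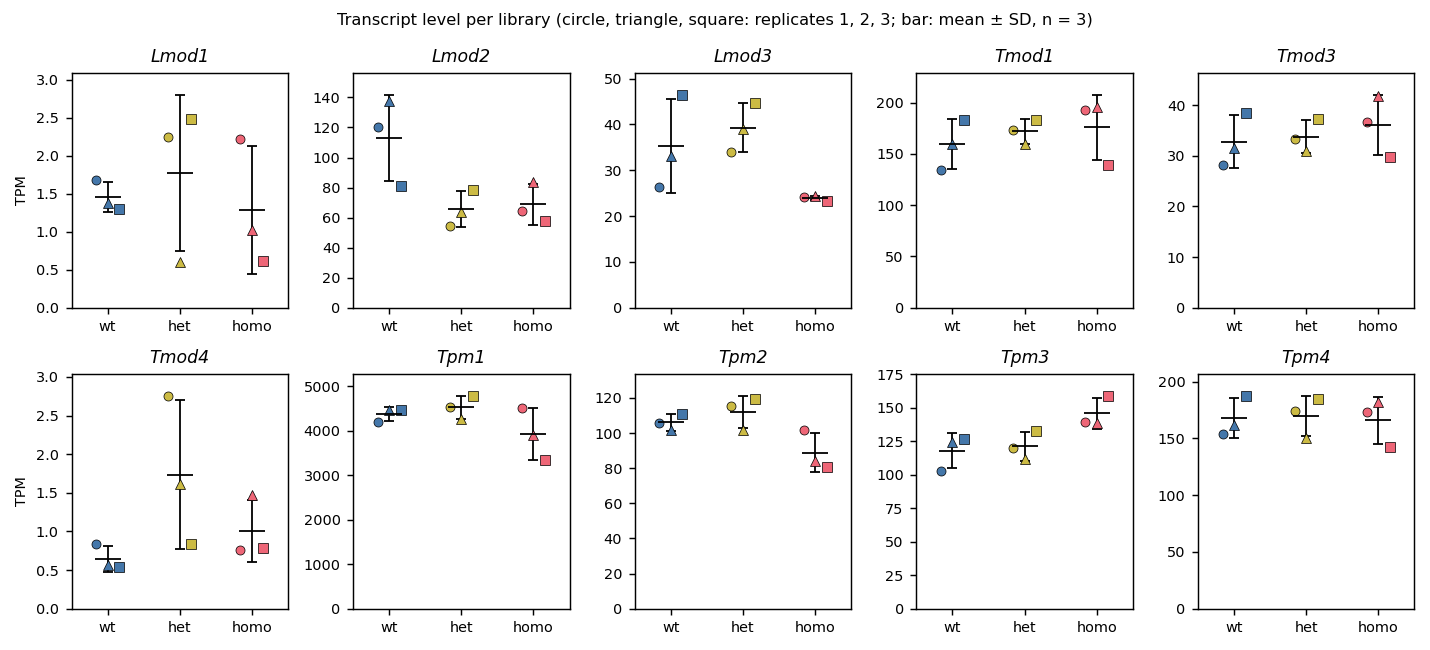
Level in TPM (y axis, from 0) of each of the 10 genes in wild-type (wt), heterozygous (het) and homozygous (homo) hearts. Symbols are the 3 libraries of a group and bars the mean ± SD. The 3 homozygous *Lmod3* values lie between 23.3 and 24.3 TPM, below every other library, and 2 of 3 wild-type *Lmod2* values, 120.4 and 137 TPM, lie above all mutant ones.

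Homozygous hearts were set against wild-type hearts to ask which transcript levels the mutation on both alleles alters. For this comparison 0 of the 10 genes passed a limma adjusted p under 0.05, against 0.336% of all tested genes. At an unadjusted p under 0.05 there were 4 of 10, *Lmod2*, *Lmod3*, *Tpm2* and *Tpm3*, against 25% of all genes. The homozygous values lay wholly below the wild-type values for 2 genes, *Lmod3* and *Tpm2*, against 2.38% of all genes, and wholly above them for *Tpm3*, against 22.3%. The log2 change was below 0 for 6 of 10 genes, against 18.2% of all genes, and 8 of 10 lay below the median change of all genes. The median of the 10 changes was -0.09, against 0.23 for all genes. The study lists *Lmod2* and *Lmod3* among the genes lower in homozygous hearts. It tested read counts with DESeq2, with a stricter limit on the adjusted p and a limit on the fold change, which was not set here. Its calls and those here are therefore not alike in measure. The study also reports lower levels by RT-qPCR in homozygous hearts for genes of myocardial development and contraction.

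In heterozygous against wild-type hearts 0 of 10 genes passed, against 0.0146% of all genes (0% higher and 0.0146% lower), and 1 gene, *Lmod2*, had an unadjusted p under 0.05, against 6.87%. *Lmod2* was also the 1 gene whose groups did not overlap, on the low side, where 1.03% of all genes lay. Its change was also the 1 of 10 below 0, against 18.3% of all genes. In homozygous against heterozygous hearts 0 of 10 passed, against 0.0439% (0.00731% higher and 0.0365% lower). There 3 genes, *Lmod3*, *Tpm2* and *Tpm3*, had an unadjusted p under 0.05, against 7.15%. The groups did not overlap for the same 3, with *Lmod3* and *Tpm2* lower in homozygous hearts, against 3.85% of all genes, and *Tpm3* higher, against 12%. Homozygous against wild type shares libraries with each of the other comparisons, so their values are given side by side and not as repeats of each other.

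**Figure D2:**
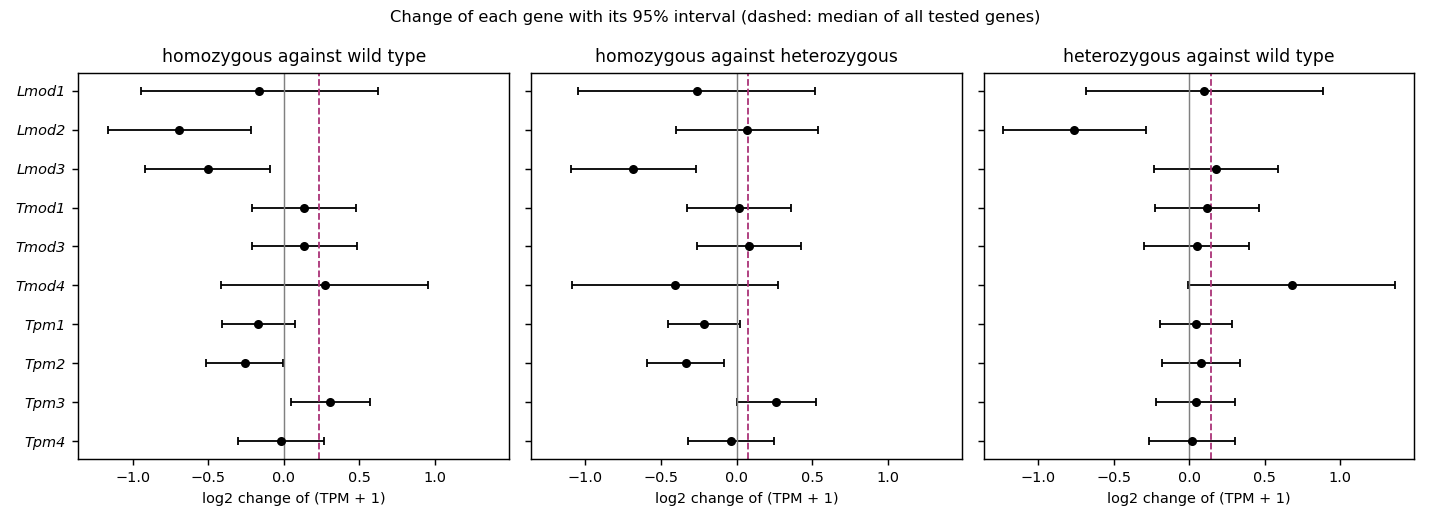
Log2 change of (TPM + 1) with its 95% interval from limma for each gene in the 3 comparisons, with the median of all tested genes as a dashed line. The intervals of *Lmod2* exclude 0 in both comparisons with wild type, at -0.69 and -0.76. In both comparisons of homozygous hearts those of *Lmod3* (-0.50 and -0.68), *Tpm2* (-0.26 and -0.34) and *Tpm3* (0.31 and 0.26) exclude 0. No gene passed the adjusted threshold.

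*Lmod2*, the cardiac leiomodin, had a similar mean in both mutant groups, below that of wild type. Wild-type libraries held 120.4, 137 and 81.1 TPM, heterozygous libraries 54.4, 63.8 and 78.4 TPM and homozygous libraries 64.6, 83.9 and 57.9 TPM. Wild-type replicates 1 and 2 were thus far above the rest, while wild-type replicate 3 was under the highest homozygous value and just above the highest heterozygous one. Means by genotype came to 113.0 ± 28.9, 65.5 ± 12.1 and 68.8 ± 13.5 TPM (SD, n = 3). The log2 change was -0.69 (SE 0.21, limma adjusted p 0.120) for homozygous against wild type, with a 95% interval of -1.16 to -0.22. It was -0.76 (SE 0.21, adjusted p 0.672) for heterozygous against wild type, with an interval of -1.23 to -0.29. Between homozygous and heterozygous hearts the change was 0.07 with an interval of -0.40 to 0.54, which leaves room for a difference of either sign. Relative to the median of all genes the homozygous change was -0.92, at the 1.68 percentile of tested genes, and the heterozygous change stood at the 0.753 percentile.

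The size of the *Lmod2* difference rested in part on single libraries. Without wild-type replicate 3, the lowest of its group, the homozygous change was -0.91 with a limma adjusted p of 0.0267, in a fit that called 2170 genes, 15.9% of those tested, and 1.02% as lower. It was -0.51 (adjusted p 0.315) without the 3 libraries in which lung, liver or thymus markers were high, of which wild-type replicate 1 is one, and the heterozygous change was then -0.57; this setting was chosen after the data had been examined. The erythroid marker sum was 11909 and 14605 TPM in the wild-type libraries with high *Lmod2* and 2853 TPM in wild-type replicate 3. It was also 15551 TPM in heterozygous replicate 1, which had the lowest *Lmod2* of the 9 libraries, and 4306 to 5148 TPM in homozygous hearts. The part of blood content in the *Lmod2* values was not tested.

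*Lmod3*, on the minus strand of chromosome 6 at 97238534 to 97252759, is a leiomodin best known from skeletal muscle. Its wild-type libraries held 26.4, 33.1 and 46.5 TPM and its heterozygous libraries 34.0, 39.1 and 44.7 TPM. The homozygous libraries held 24.2, 24.3 and 23.3 TPM, all below the other 6, with the lowest wild-type library only about 2 TPM above them. Means were 35.3 ± 10.3, 39.3 ± 5.35 and 23.95 ± 0.532 TPM, so the homozygous group had far the smallest spread. The log2 change was -0.50 (SE 0.19, limma adjusted p 0.147) against wild type, with an interval of -0.92 to -0.09, and relative to the median of all genes it was -0.74, at the 2.7 percentile. Against heterozygous hearts it was -0.68 (SE 0.19, unadjusted p 0.00400, adjusted p 0.495), with an interval of -1.09 to -0.27. Heterozygous and wild-type values overlapped, with a change of 0.18 (adjusted p 0.742). In contrast to *Lmod2*, the change was not smaller without the 3 libraries with high other-organ markers, at -0.67 (adjusted p 0.198), but it was -0.29 without wild-type replicate 3, the library with the highest level.

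As *Lmod3* is abundant in skeletal muscle, markers of that tissue are given beside it. Of the 13 skeletal-muscle markers 12 were in the table and 7 reached 1 TPM in at least 1 library. *Mylpf* (1.75 to 6.58 TPM), *Tnni2* (3.07 to 10.4 TPM), *Tnnt3* (1.61 to 6.07 TPM) and *Myh8* (1.93 to 6.24 TPM) were above 1 TPM in all 9 libraries, while *Myog*, *Pax7*, *Myh3*, *Myh4* and *Atp2a1* never reached it. The 12 markers summed to between 947 and 1486 TPM, most of it from the creatine kinase gene *Ckm*, which heart muscle also expresses. Their part in the *Lmod3* values was not tested.

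*Lmod1*, a leiomodin of smooth muscle on chromosome 1, was scarce. Wild-type libraries read 1.68, 1.38 and 1.30 TPM, the heterozygous ones 2.25, 0.60 and 2.48 TPM and the homozygous ones 2.22, 1.02 and 0.61 TPM. Values from different groups overlapped throughout. The log2 change of -0.16 for homozygous against wild type had an interval of -0.94 to 0.62 (limma adjusted p 0.782), wide enough to hold a change of the size seen for *Lmod2*.

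The groups overlapped for all 3 tropomodulins in each comparison, and 0 of them passed the test. Most genes did likewise. No overlap was seen for 24.7% of all genes for homozygous against wild type, 15.9% for homozygous against heterozygous and 13.8% for heterozygous against wild type. In the same order 0.336%, 0.0439% and 0.0146% of all genes passed. *Tmod1*, the cap of cardiac pointed ends (chromosome 4, 46038935 to 46116032), stood at 135, 160 and 183 TPM in the wild-type libraries. The heterozygous ones held 173, 159 and 183 TPM and the homozygous ones 193, 196 and 139 TPM, which overlapped with wild type. Its log2 change for homozygous against wild type was 0.14, with an interval of -0.21 to 0.48, and it was -0.11 after median-ratio scaling. *Tmod3* had means of 32.7 ± 5.24, 33.8 ± 3.17 and 36.1 ± 6.01 TPM and a change of 0.13 with an interval of -0.21 to 0.48, which was -0.10 after median-ratio scaling and -0.05 after quantile normalization. Relative to the median of all genes both changes were -0.10. Leaving out 1 library at a time moved the *Tmod1* change between 0.021 and 0.30 and the *Tmod3* change between 0.023 and 0.26, with the highest value of each without homozygous replicate 3. *Tmod1* made up 82.7% of tropomodulin TPM in wild-type, 82.9% in heterozygous and 82.5% in homozygous hearts.

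*Tmod4* was near the limit of measurement. Wild-type libraries read 0.84, 0.56 and 0.54 TPM, heterozygous libraries 2.76, 1.61 and 0.84 TPM and homozygous libraries 0.76, 1.47 and 0.78 TPM. The heterozygous change of 0.68 (interval -0.0064 to 1.36, limma adjusted p 0.672) rested on 2 libraries, and heterozygous replicate 3 equalled wild-type replicate 1. With a pseudocount of 0.1 in place of 1 it was 1.18, and with a pseudocount of 5 it was 0.25, and leaving out 1 library at a time it ran from 0.42 to 0.93. The neighbouring genes *Scnm1* and *Vps72* lie only 327 and 1425 bases away.

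*Tpm1* (chromosome 9, 67022590 to 67049406, minus strand) provided most tropomyosin transcripts. Its wild-type libraries held 4200, 4467 and 4475 TPM, its heterozygous libraries 4527, 4260 and 4795 TPM and its homozygous libraries 4521, 3916 and 3345 TPM. Homozygous replicate 1 was above all wild-type libraries while replicates 2 and 3 were below them, and the log2 change was -0.17 (SE 0.11, limma adjusted p 0.330) with an interval of -0.41 to 0.07. The change was -0.06 without homozygous replicate 3, the library with thymocyte transcripts and the lowest cardiomyocyte sum, 34429 TPM. Leaving out 1 library at a time moved it between -0.27 and -0.06. It was 0.12 after quantile normalization but -0.41 after median-ratio scaling, so its sign differed with the scaling. The annotation holds 21 transcripts of *Tpm1*, 16 of them coding, and the gene-level value does not separate the striated from the other isoforms.

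*Tpm2* (chromosome 4, 43514711 to 43523765, minus strand) had wild-type levels of 106, 102 and 111 TPM and heterozygous levels of 115, 101.5 and 119 TPM. The homozygous libraries held 101.4, 83.9 and 80.8 TPM, below all others, but homozygous replicate 1 only just. Means were 106 ± 4.68, 112 ± 9.32 and 88.7 ± 11.1 TPM. The log2 change was -0.26 (SE 0.12, limma adjusted p 0.194) against wild type and -0.34 (adjusted p 0.650) against heterozygous hearts. The summed level of 8 smooth-muscle markers was also lowest in homozygous replicates 2 and 3, with 890 and 891 TPM. Homozygous replicate 1 had 1322 TPM, the wild-type libraries 1562 to 1591 TPM and the heterozygous ones 1208 to 1569 TPM. Most of the sum came from *Myl9* and *Acta2*. In homozygous replicates 2 and 3 *Cnn1*, *Tagln*, *Actg2* and *Myh11* were also below all wild-type libraries. *Cnn1* was at 6.25 and 8.93 TPM there, against 22.1 to 25.5 TPM in wild type. Heterozygous replicate 2 was likewise below all wild-type libraries for *Cnn1* (13.6 TPM), *Tagln* (25.6 TPM), *Actg2* (3.36 TPM) and *Myh11* (2.85 TPM). *Mylk* and *Smtn* had another order. *Mylk* was at 6.33, 7.47 and 5.81 TPM in the homozygous libraries against 3.56 to 5.02 TPM in wild type. *Smtn* was at 93.6, 103.8 and 68.7 TPM against 71.2 to 84.7 TPM. The part of the smooth-muscle markers in the *Tpm2* values was not tested.

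*Tpm3* (chromosome 3, 90072649 to 90100902), a tropomyosin of slow skeletal muscle and of the cytoskeleton, had the opposite order. Wild-type hearts held 103, 124 and 127 TPM, heterozygous hearts 120, 112 and 133 TPM and homozygous hearts 140, 139 and 159 TPM, so all homozygous libraries were above the other 6. The log2 change was 0.31 (SE 0.12, limma adjusted p 0.156) against wild type, with an interval of 0.04 to 0.57, and 0.26 (adjusted p 0.698) against heterozygous hearts. Relative to the median of all genes it was 0.07, at the 62.1 percentile, so that after median-ratio scaling the groups overlapped. Homozygous replicate 3, with the thymocyte transcripts, held the highest value, and without the 3 libraries with high other-organ markers the change was 0.15. Of the 31-base words of *Tpm3* transcripts, 27.0% also occur in other genes, nearly all of them in the processed copy *Tpm3-rs7*, which was listed at only 0.17 to 0.53 TPM; how reads were divided between the copies is not known.

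*Tpm4* (chromosome 8, 72134975 to 72153142) had almost equal group means of 168 ± 17.6, 170 ± 17.3 and 166 ± 20.5 TPM. Its log2 change for homozygous against wild type was -0.02 with an interval of -0.30 to 0.27, or -0.25 relative to the median of all genes. After median-ratio scaling the change was -0.26 (limma adjusted p 0.092), with every homozygous value below every wild-type value. Of the 31-base words of *Tpm4* transcripts, 16% also occur in another gene of the annotation, *Gm7809*, which was listed at 0 to 0.45 TPM. The antisense genes *Gm26586* and *Gm16091* overlap *Tpm4* and cannot be told apart from it unless strand was used in counting.

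Within the families, *Tpm1* accounted for 91.8% of tropomyosin TPM in wild-type and heterozygous hearts and for 90.7% in homozygous hearts. The share of *Tpm3* was 2.26%, 2.56% and 2.59% in wild-type, 2.43%, 2.41% and 2.54% in heterozygous and 2.83%, 3.21% and 4.27% in homozygous libraries, with no overlap between the homozygous group and the others. The summed leiomodin level was 150 ± 21.6 TPM for wild type, 107 ± 17.6 TPM for heterozygotes and 94.1 ± 13.9 TPM for homozygotes. *Lmod2* provided 81.1%, 79.9% and 62.9% of that sum in wild-type libraries, 60.0%, 61.6% and 62.4% in heterozygous and 71.0%, 76.8% and 70.8% in homozygous libraries. The share of *Lmod2* was thus higher in each homozygous than in each heterozygous library, and that of *Lmod3* lower, at 22.2% to 28.5% against 35.6% to 37.8%.

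A ratio of genes within a library does not depend on how that library was scaled. The ratio of *Lmod2*, which elongates, to *Tmod1*, which caps, was 0.894, 0.861 and 0.442 in wild-type, 0.314, 0.400 and 0.428 in heterozygous and 0.336, 0.428 and 0.417 in homozygous libraries. The wild-type values were above all mutant values, with wild-type replicate 3 only just so. The difference of log2 ratios was -0.83 for homozygous against wild type and -0.89 for heterozygous against wild type, with a two-sided exact permutation p of 0.1 for each, which is the lowest value possible with 3 libraries on each side. Between the mutant groups it was 0.05 (exact permutation p 0.6). The ratio of *Tmod3* to *Tmod1* differed by 0.0015 between homozygous and wild-type hearts (exact permutation p 1.0), and that of *Tpm2* to *Tpm1* by -0.10 (exact permutation p 0.2). Over the 9 tests of these ratios the Benjamini-Hochberg adjusted values were 0.36 or more.

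**Figure D3:**
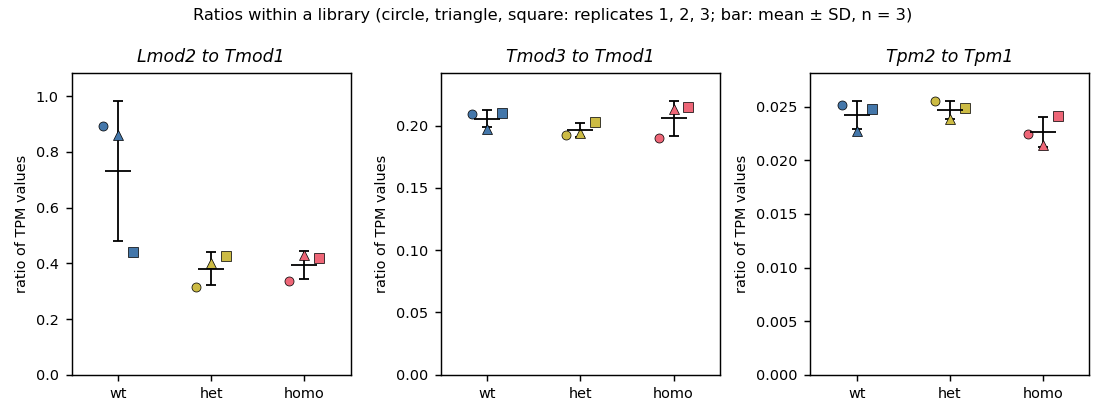
Ratio of the TPM values of 2 genes within each library (y axis, from 0) by genotype, with the mean ± SD of 3 libraries as bars. For *Lmod2* to *Tmod1* all 6 mutant libraries lie between 0.314 and 0.428 and the wild-type libraries between 0.442 and 0.894; the other ratios overlap between groups.

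Which genes passed differed with the scaling of the libraries. Dividing each library by its median ratio to the 9-library reference, with factors of 0.837 to 1.04 in wild-type and 0.985 to 1.14 in homozygous hearts, gave *Lmod3* levels of 31.5, 38.0 and 44.9 in wild-type and 21.8, 21.2 and 23.7 in homozygous hearts. The *Lmod3* change was then -0.74 (SE 0.13, limma adjusted p 0.0346). *Tpm2* stood at 126, 116 and 107 against 91.2, 73.4 and 82.0, with a change of -0.50 (SE 0.095, adjusted p 0.0395). With this scaling 2 of the 10 genes were called lower, against 1.37% of all genes. *Lmod2* was 143.8, 157.5 and 78.4 against 58.1, 73.4 and 58.8, no longer overlapping, and its change of -0.93 had an adjusted p of 0.092. *Tpm1* and *Tpm4* also no longer overlapped. The share of all genes without overlap after this scaling was not computed, so these separations have no reference beside them. *Tpm1* was 5017, 5119 and 4322 against 4066, 3425 and 3395, with a change of -0.41 (limma adjusted p 0.091). *Tpm4* was 184, 186 and 181 against 156, 159 and 145, with a change of -0.26 (limma adjusted p 0.092). *Tpm3* had a change of 0.07. Over all genes this scaling gave 229 calls, 42 of them higher, against 46 calls, 26 of them higher, for TPM as deposited. When libraries were weighted by their quality with arrayWeights, *Lmod2* (-0.83, adjusted p 0.0123) and *Lmod3* (-0.41, adjusted p 0.0496) passed for homozygous against wild type, in a fit that called 5068 genes, 37% of those tested, and 1.88% as lower.

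**Figure D4:**
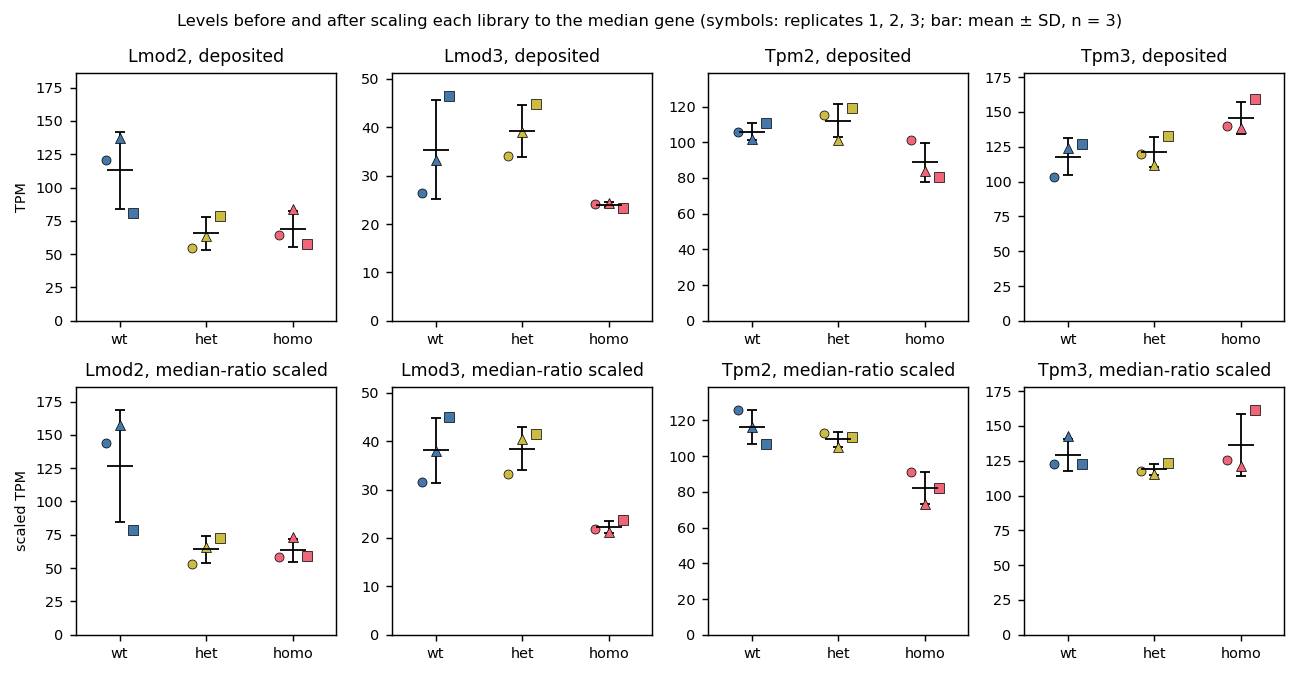
Levels of 4 genes as deposited (top, TPM) and after median-ratio scaling (bottom, scaled TPM), with symbols for the 3 libraries of a genotype and bars for the mean ± SD. After scaling the homozygous *Tpm2* values, 73.4 to 91.2, move further below the wild-type values of 107 to 126, and the homozygous *Tpm3* values overlap with wild type.

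Lists of other genes related to the thin filament were examined in the same fit. Of 13 genes for striated thin filament proteins, 1 was called lower in homozygous than in wild-type hearts, against 0.146% of all genes, and 0 higher, against 0.19%. This was *Acta1*, skeletal alpha-actin, which is also expressed in the embryonic heart, at 25.3 ± 10.8 against 72.3 ± 6.78 TPM (log2 change -1.56, limma adjusted p 0.0484). The cardiac troponin C gene *Tnnc1* also had no overlap, at 2964 ± 238 against 3537 ± 139 TPM (-0.26, adjusted p 0.134), as did *Tnnc2* of fast skeletal muscle at under 2 TPM in both group means (-0.99, adjusted p 0.183). With *Acta1* these made 3 of 13 genes lying wholly below wild type, against 2.38% of all genes. The highest change was that of *Nebl*, which encodes the cardiac thin-filament protein nebulette, at 0.41 (adjusted p 0.209). The list's median was -0.05, close to the -0.09 of the leiomodins, tropomodulins and tropomyosins and below the 0.23 of all genes.

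Of 20 genes for filament ends and actin turnover 19 were tested and 0 were called in any comparison, against 0.336%, 0.0439% and 0.0146% of all genes in the 3 comparisons, with a median of 0.11 for homozygous against wild type. The formin gene *Fhod1* had the highest change, 0.42 (adjusted p 0.121), with levels of 9.91 ± 0.785 against 7.15 ± 0.798 TPM. The muscle cofilin gene *Cfl2*, whose product severs and disassembles filaments, had the lowest, -0.29 (adjusted p 0.155), with 101 ± 13.8 against 123 ± 5.08 TPM. The neuronal tropomodulin *Tmod2*, one of this list, stayed between 0.77 and 1.3 TPM. A list of 10 thin-filament stability partners included *Klhl40*, whose product stabilises LMOD3, and also held genes for proteins outside the thin filament. Of these 10 genes 9 were tested and 0 were called, with a median of 0.08 and a range from *Csrp3* at -0.12 to *Xirp2* at 0.48. Of 11 symbols for the regulators SRF, MRTF and MEF2, which drive many sarcomere genes, 8 were tested and 0 were called, with a median of 0.29 and a range from *Srf* at 0.12 to *Mkl2* at 0.47. In homozygous against heterozygous hearts the medians of the 4 lists were -0.21, 0.02, -0.11 and -0.02, and in heterozygous against wild-type hearts 0.03, 0.08, 0.18 and 0.28, in the order given here, with 0 calls.

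**Figure D5:**
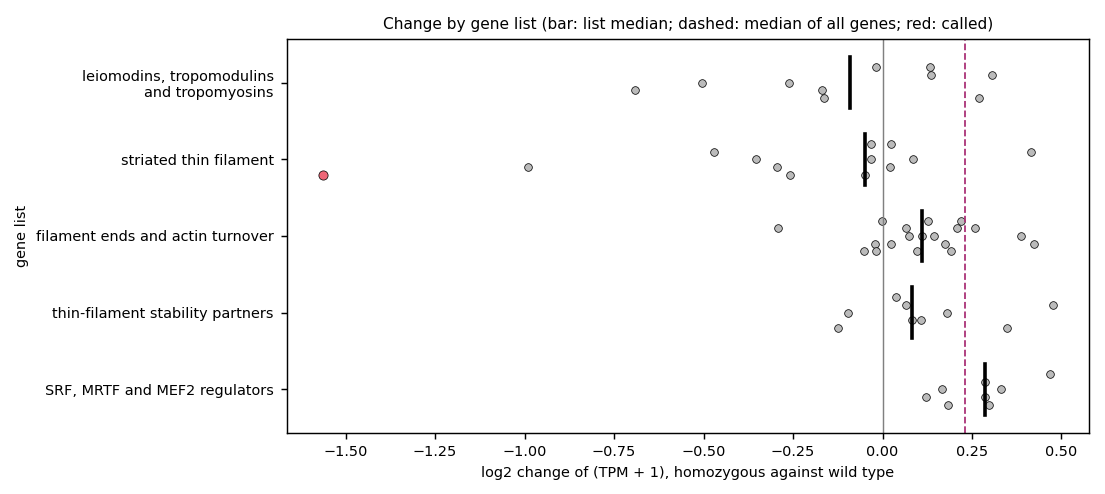
Log2 change of (TPM + 1) for homozygous against wild type of the 10 genes and of the 4 lists of related genes, with the list medians as bars and the median of all tested genes, 0.23, as a dashed line. The single called gene, in red, is *Acta1* at -1.56; the leiomodins *Lmod2* and *Lmod3* lie at the low end of their group.

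The genes next to the 10 loci showed no calls. The nearest tested coding genes on both sides amounted to 20 genes, of which 0 were called in any comparison, against the same low shares of all genes, with homozygous changes from -0.14 to 0.54. Beside *Lmod2* lie *Wasl*, 8391 bases away with a change of 0.13 (adjusted p 0.491), and *Asb15*, 24598 bases away with a change of 0.54 (SE 0.27, adjusted p 0.231) at a mean of 2.25 TPM. Beside *Lmod3* lie *Arl6ip5*, with a change of 0.09 (adjusted p 0.641), and *Frmd4b*, with a change of -0.0022 (adjusted p 0.996).

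Promoters from RefSeq, 250 bases before to 50 after the start, were at hand for 8 of the 10 genes (9 promoters). Letters were searched on both strands. The CArG box bound by SRF, the MEF2 box and TATAAA had no match in any of the 9, and are found in 1.63%, 3.19% and 13.6% of all 32851 promoters. The E-box CANNTG occurred in 7 of 8 genes, all but *Tmod1*, against 72.3% of all promoters. The TEAD motif CATTCC occurred in *Lmod1*, *Tmod1* and *Tpm1*, against 14.7%. In the *Lmod2* window the E-boxes were caaatg, which begins 103 bases before the annotated start given above, and cagctg, which begins 9 bases after it. These are matches of letters within a short window and carry no information on binding.

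The transcripts whose pattern over the 9 libraries was most like that of *Lmod2*, by the root-mean-square difference of centred log2 values among 9951 other genes, were *Id1* (0.156), *Tmem254a* and *Tmem254b* (0.169, with identical values), *Plk2* (0.206) and *Abra* (0.208), where the median gene differed by 0.540. *Id1*, which encodes a helix-loop-helix protein, had wild-type levels of 98.7, 104.8 and 58.95 TPM, heterozygous levels of 57.99, 48.8 and 67.4 TPM and homozygous levels of 49.95, 68.97 and 42.7 TPM, with wild-type replicate 3 again the lowest of its group. For *Lmod3* they were *Gk* (0.147), *Itga1* (0.157), *Fuca2* (0.162), *Col15a1* (0.171) and *Ntn4* (0.171), against 0.412 for the median gene. The likeness includes whatever sets single libraries apart, such as wild-type replicate 3.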

How the data were processed

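Whole-heart RNA of 9 libraries (3 per genotype) was captured by poly-A beads. Per the labels and methods, the authors processed reads with Trim Galore, STAR and RSEM on mm10 and deposited TPM per gene, that is, estimated abundance corrected for transcript length and scaled to a common total (999100 to 999245 per library). The annotation release and strand setting are not given in the sources used here. TPM keeps no depth, and the DESeq2 test of the study needs counts and was not run.

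Of 24597 symbols, 26 turned into dates or repeated were left out (at most 0.0921% of a library). Libraries were grouped by title. Genes averaging 1 TPM or more entered the fit as log2(TPM + 1), made with limma (v3.58.1, R v4.3.3) fitted to all 9 libraries without covariates, with trended eBayes, two-sided, with Benjamini-Hochberg adjustment over all tested genes and calls at an adjusted p under 0.05. Fold changes are on the log2(TPM + 1) scale, which understates changes of low genes. Ratios were compared by exact two-sided permutation. The procedure was tested on simulated data with independent noise for each gene. Differences shared by many genes of a library were not simulated, so that test does not cover them.

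The 10 genes and all lists were chosen with earlier results of these data known. The 10 were named whatever their values. From the lists, called genes and the highest and lowest change per list for homozygous against wild type were named, together with the 5 genes of at least 5 TPM most like *Lmod2* and *Lmod3* and the nearest tested coding genes. *Tnnc1*, *Tnnc2*, *Tmod2* and single marker genes were added after their values were seen. Coordinates came from GENCODE M21 on mm10 (GRCm38) and promoters from RefSeq (GRCm38.p6). Alternatives were the pseudocount, the filter, the scaling, eBayes options, arrayWeights, an *Xist* covariate, a replicate block and leaving out libraries. The labels do not say that replicate numbers pair samples, and the main fit did not pair them. Same-numbered correlations ran from -0.03 to 0.36, with 2 of 9 over 0.1, and 6 of 9 libraries correlated best with their own number.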

Additional observations from a re-analysis of the deposited data

How the results depend on the processing

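The changes of the 10 genes were recomputed 684 times over 23 alternatives, and 626 kept their direction. The differences below 0 of *Lmod2* in both comparisons with wild type and of *Lmod3* and *Tpm2* in both comparisons of homozygous hearts, and those above 0 of *Tpm3* there, kept it in all 24 settings. For homozygous against wild type, 2 genes were called after median-ratio scaling (*Lmod3*, *Tpm2*), 2 with arrayWeights (*Lmod2*, *Lmod3*) and, leaving out each library in turn, 0 to 1 (*Lmod2*, without wild-type replicate 3). The adjusted p ran from 0.0123 to 0.349 for *Lmod2* and from 0.0346 to 0.349 for *Lmod3*. With the replicate block 0 genes were called, the *Lmod2* change was -0.69 (limma adjusted p 0.139) and calls over all genes were 17, 1 and 1 against 46, 6 and 2; 6 of 9 libraries correlated best with their own number, and the numbers mark no shared litter in the labels. The unknown depth limits *Lmod1* and *Tmod4* most, and the mean of at least 5 TPM left both out. The causes of the following reversals were not tested.

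For homozygous against wild type, opposite signs were found for *Lmod1* with arrayWeights (0.11) and without the 3 libraries with high other-organ markers (0.12), *Tpm4* in the same settings (0.096 and 0.026), *Tmod1* after median-ratio scaling (-0.11), *Tmod3* after median-ratio scaling (-0.10) and quantile normalization (-0.051) and *Tpm1* after quantile normalization (0.12). The log2 ratio of *Tmod3* to *Tmod1* was -0.0016 with 1 TPM added. For homozygous against heterozygous they were found for *Lmod1* with the *Xist* covariate (0.081) and without the 3 libraries (0.11), *Lmod2* after median-ratio scaling (-0.0091), *Tmod1* after median-ratio scaling (-0.061) and with *Xist* (-0.023), *Tpm1* after quantile normalization (0.048) and *Tpm4* with arrayWeights (0.026) and without the 3 libraries (0.0903). For heterozygous against wild type, median-ratio scaling gave -0.0101 for *Lmod1*, -0.045 for *Tmod1*, -0.11 for *Tmod3*, -0.12 for *Tpm1*, -0.086 for *Tpm2*, -0.12 for *Tpm3* and -0.15 for *Tpm4*. Quantile normalization gave -0.059 for *Lmod1*, -0.079 for *Tmod3*, -0.0079 for *Tpm2*, -0.039 for *Tpm3* and -0.0697 for *Tpm4*. The *Xist* covariate gave -0.24 for *Lmod1*, -0.0305 for *Tpm1* and -0.01995 for *Tpm2*. Leaving out the 3 libraries gave -0.0031 for *Tmod1*, -0.038 for *Tmod3*, -0.043 for *Tpm3* and -0.064 for *Tpm4*, and rescaling without mitochondrial and haemoglobin genes gave -0.023 for *Tpm4*.

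Leaving out 1 library at a time spanned 0, for homozygous against wild type, for *Lmod1* (-0.44 to 0.059), *Tpm4* (-0.087 to 0.086) and the log2 ratio of *Tmod3* to *Tmod1* (-0.0297 to 0.059). For homozygous against heterozygous it did so for *Lmod2* (-0.081 to 0.20), *Tmod1* (-0.069 to 0.18), *Tmod3* (-0.028 to 0.21) and *Tpm4* (-0.12 to 0.0703). For heterozygous against wild type it did so for *Lmod1* (-0.10 to 0.46), *Lmod3* (-0.0082 to 0.39), *Tmod3* (-0.047 to 0.17), *Tpm3* (-0.051 to 0.10) and *Tpm4* (-0.047 to 0.098).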
